A study of Homo sapiens with 15 samples.

Results

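The data compare 4-hydroxytamoxifen-resistant T47D cells on vehicle (TR vehicle, 3 libraries) with parental T47D cells on vehicle (PAR vehicle, 3 libraries), chosen by their labels and making up 6 of the 15 libraries of the series. T47D is a human breast cancer line of luminal, hormone receptor-positive type, and 4-hydroxytamoxifen (4-OHT) is the compound into which the body turns tamoxifen, an anti-oestrogen. TR cells had been kept in RPMI medium with 2% charcoal-stripped serum, 8 µg/mL insulin and 1 µM 4-OHT, and PAR cells in RPMI medium with 5% ordinary serum and the same insulin. Both were then plated for 24 h, held for 48 h without hormones in 2% charcoal-stripped serum and given 0.05% DMSO for 120 h, so that neither group had drug during the last period. Resistance, the earlier drug and the earlier medium differed together between the groups and cannot be told apart. Per the labels, a group holds 3 biological replicates of its line, parental or resistant; they do not say whether the resistant line was a clone, so p-values measure only the spread between these samples. The other 9 libraries were TR cells on 4-OHT, on erdafitinib (an inhibitor of fibroblast growth factor receptors) or on both. They entered the fit to estimate the spread between libraries. They also entered the choice of genes with enough counts, the scaling and the correction for GC content.

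RNA was counted per gene. Totals were 21025659, 25696651 and 27229667 counts in the TR libraries, against 13150009, 6946684 and 24958954 counts in the PAR libraries. Of 60664 gene IDs, 16210 had enough counts to be tested. Values are given as CPM, reads scaled to a common total after TMM correction, in the order of libraries 1, 2 and 3 of each group. A log2 fold change is TR over PAR with its standard error, and a gene counts as changed at an adjusted p under 0.05 in edgeR's quasi-likelihood test over all tested genes. On that rule 3220 genes (19.9% of those tested) were higher and 2598 (16%) lower in TR cells, 35.9% in all, and 2346 of the higher and 1542 of the lower genes differed by at least 2-fold. In 41% of tested genes the 3 TR libraries lay wholly above or wholly below the 3 PAR libraries. The median log2 fold change over all tested genes was 0.07. With so many genes changed, the share of a gene list that was called is read below against these percentages, and no list was tested as a set.

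Libraries also differed within groups. Among tested genes with an average log2 CPM over 2, the first within-group axis held 72.1% of the variance. It followed GC content across those genes (Spearman rho 0.83, a description). GC-rich genes stood 1.03 log2 units under their group's mean in TR library 1 and 0.67 under it in PAR library 2, against 0.90 above it in PAR library 3. A fit corrected for GC content and length moved the median of all genes to -0.04, and lists whose direction depends on that correction are named where they occur. Where GC correction or leaving out 1 library moved the median of a list by over 1.5 times or turned its sign, those medians follow it in parentheses. The markers of breast luminal epithelium were present in both groups, with summed levels of 6695 to 7235 CPM in TR libraries and 5687 to 5997 CPM in PAR libraries. Of those 12 markers, 2 were called higher (CD24, log2 fold change 1.90 ± 0.18, and GATA3, 0.45 ± 0.16) and 2 lower (TFAP2C, -2.49 ± 0.16, and AGR2, -1.37 ± 0.18). GATA3 was no longer called without TR library 2 or 3 or PAR library 1 or 2 (at log2 fold changes of 0.38 to 0.41). Nor was it called after GC correction (log2 fold change 0.23, adjusted p = 0.32). Without TR library 1, 5 of the luminal markers were called higher. Markers of other cell types summed to 13.9, 37.6 and 39.3 CPM in TR libraries and 13.9, 11.9 and 29.1 CPM in PAR libraries. Of those 17 markers, 7 were at 0 in all 6 libraries (among them CD3E, CDH5, PDGFRB, GFAP, TTN and HBB), and 4 were tested. Most of the sum was COL1A1, at 11.9, 34.2 and 34.8 CPM in TR and 13.4, 11.9 and 28.2 CPM in PAR cells. COL3A1 and ADIPOQ were called higher, with 148 and 34 counts over the TR libraries and 0 counts in PAR cells.

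**Figure D1:**
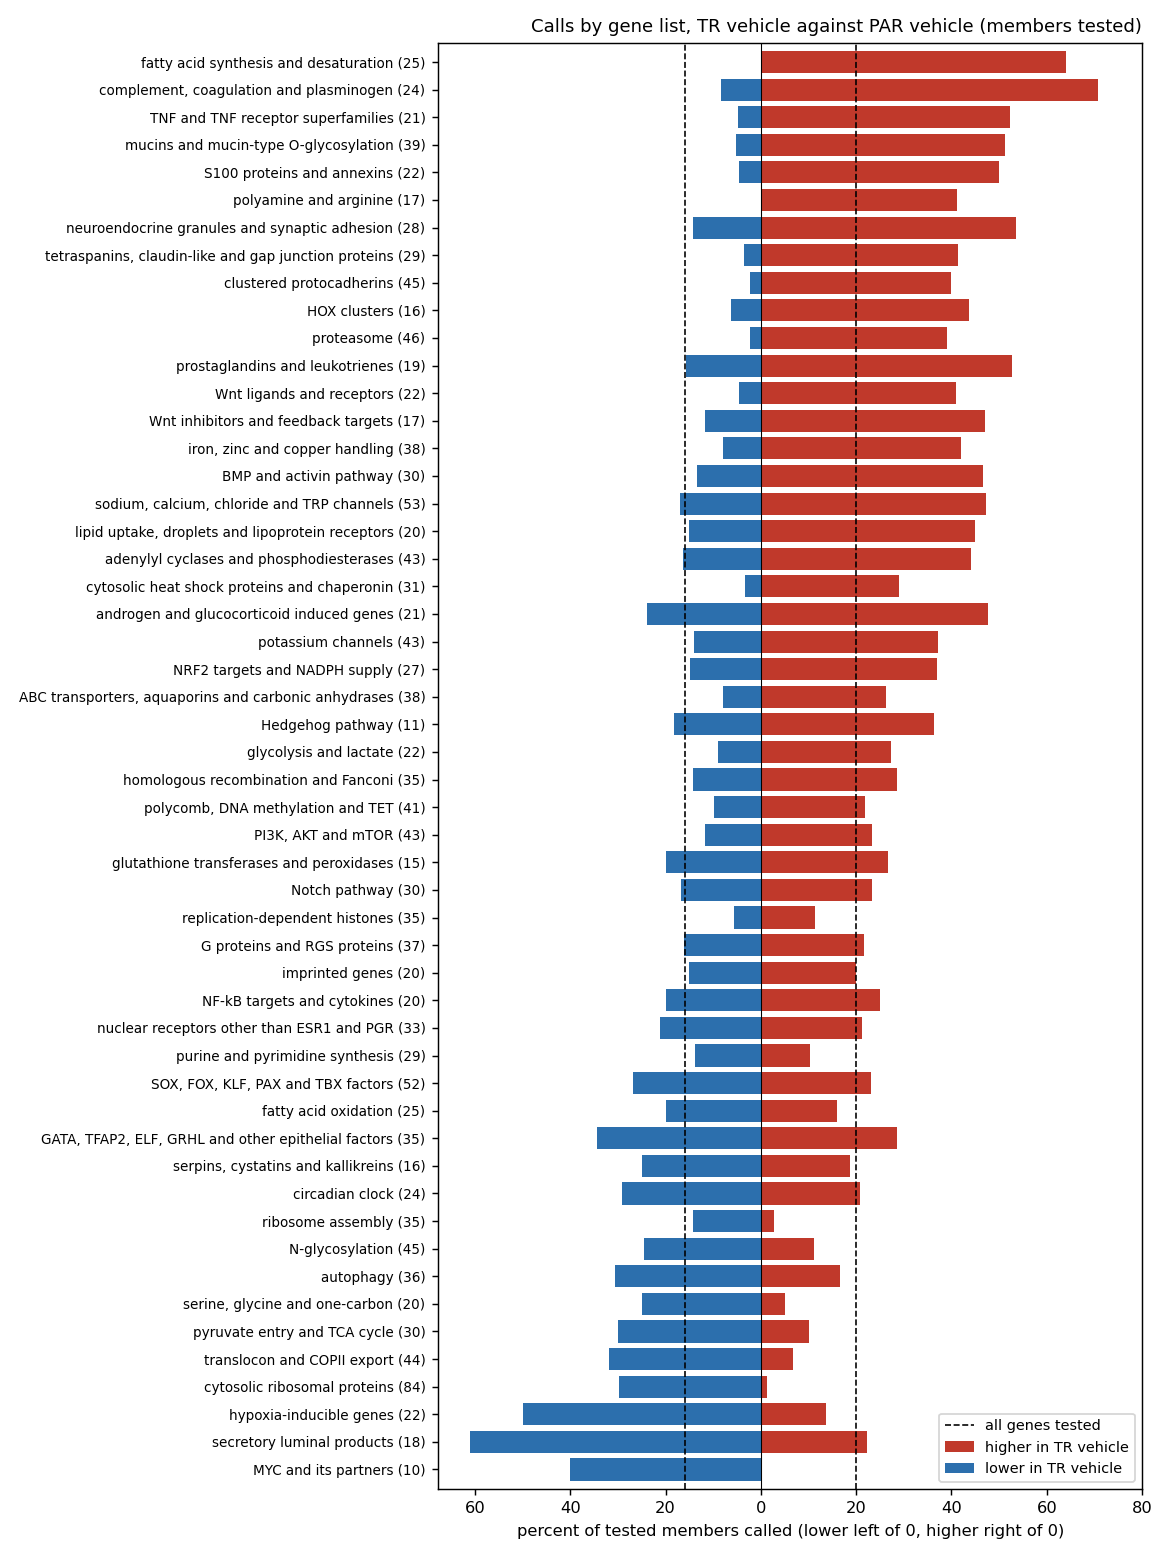
For each of 52 gene lists, the percent of tested members (number in parentheses) called higher (right of 0, red) or lower (left of 0, blue) in TR vehicle than in PAR vehicle cells. Dashed lines mark all tested genes, 19.9% higher and 16% lower. Fatty acid synthesis, complement, the TNF superfamilies and O-glycosylation lie at the top, and hypoxia-inducible genes, secretory products and MYC with its partners at the bottom.

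Growing cells make fatty acids from acetyl-CoA through ACLY, ACACA and FASN, desaturate them through SCD, and take up ready-made lipid through lipoprotein receptors and the fatty acid carrier CD36. Oxygen shortage stabilises HIF proteins, which switch on glycolytic enzymes, VEGFA and the prolyl hydroxylases that in turn destroy HIF. Both systems are often altered in breast cancer cells.

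HIF proteins bind DNA at a short core, ACGTG. Shown here because they carry that core and belong to genes that fell in TR cells are the RefSeq promoter windows (build GRCh38.p14, 250 bases before to 50 after the start) of ANKRD37 and PPFIA4, which are members of the hypoxia list. Capitals mark ACGTG on either strand, and the overlap of both strands reads CACGTG.
ANKRD37, chr4:185396591-185396890, plus strand: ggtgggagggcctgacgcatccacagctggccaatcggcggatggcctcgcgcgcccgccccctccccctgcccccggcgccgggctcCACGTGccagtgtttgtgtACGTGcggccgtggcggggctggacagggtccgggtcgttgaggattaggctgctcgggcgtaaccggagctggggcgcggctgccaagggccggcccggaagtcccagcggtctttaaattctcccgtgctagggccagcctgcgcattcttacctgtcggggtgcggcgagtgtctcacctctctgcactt
PPFIA4, chr1:203026241-203026540, plus strand: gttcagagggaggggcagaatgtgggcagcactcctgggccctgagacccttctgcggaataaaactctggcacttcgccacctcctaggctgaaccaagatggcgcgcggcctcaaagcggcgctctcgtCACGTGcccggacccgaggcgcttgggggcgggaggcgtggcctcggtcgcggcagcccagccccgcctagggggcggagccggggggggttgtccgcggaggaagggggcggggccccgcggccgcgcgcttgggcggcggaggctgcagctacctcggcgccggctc
Of 22 tested members of the hypoxia list, 17 matched a promoter by symbol, and 9 of those (52.9%) held ACGTG on either strand, against 5900 of all 27305 promoters (21.6%). The core was in 5 of the 9 matched members that fell in 1 of the 3 that rose and in 3 of the 5 that were not called. Windows of STC2 and MXI1 did not hold these letters. A match is a description of the letters and not evidence of binding. The sterol response core TCACNCCAC was in 0 of 24 matched promoters of the fatty acid synthesis list and in 1.15% of all promoters. The MYC E-box CACGTG, which contains the hypoxia core, was in 10 of 27 matched ribosome assembly promoters and 7.43% of all promoters, and in 6 of 21 circadian clock promoters. In ribosome assembly it was in 0 of 5 lower, 1 of 1 higher and 9 of 21 uncalled members. In the clock list it was in 1 of 6 lower, 2 of 5 higher and 3 of 10 uncalled members. The remaining motifs searched on both strands were the antioxidant core TGACNNNGC (4 of 18 NRF2 list promoters, 13.6% of all), the letters TGACGCA (3 of 38 cyclase and phosphodiesterase promoters, 2.49% of all), the NF-kB core GGGANNTCC (3 of 15, 4.71% of all) and the E2F core TTTGGCGC (1 of 31 recombination promoters, 0.659% of all). TGACGCA was in 0 of 16 higher, 2 of 7 lower and 1 of 15 uncalled members. It was searched as a cAMP response core but is not the standard form of that element, so these counts do not describe such sites.

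Genes for making fatty acids were higher in TR cells. Of 27 genes of fatty acid synthesis and desaturation, 25 were tested, 16 were called higher and 0 lower, with a median log2 fold change of 1.07. After GC correction the counts were 17 higher and 2 lower (median 0.62). Among the top members was SCD, the main stearoyl-CoA desaturase, with 3636, 2646 and 3001 CPM in TR cells and 612, 588 and 489.6 CPM in PAR cells. Every TR library lay above every PAR library (log2 fold change 2.46 ± 0.18, adjusted p = 1.1e-07). The second human desaturase, SCD5, had 5.67, 8.38 and 9.75 CPM in TR and 0.168, 0 and 0.255 CPM in PAR cells (log2 fold change 5.40 ± 0.45, adjusted p = 6e-07). It was close to undetected in each PAR library and was seen in all TR libraries. ACACA, which makes malonyl-CoA and sets the pace of synthesis, had 337, 239 and 263 CPM in TR and 69.4, 71 and 43 CPM in PAR cells (log2 fold change 2.20 ± 0.20, adjusted p = 1.4e-06), without overlap. ACSL4, which activates arachidonic and other polyunsaturated acids, had 96.7, 49.6 and 59.7 CPM in TR and 3.52, 5.24 and 1.09 CPM in PAR cells (log2 fold change 4.53 ± 0.45, adjusted p = 2.9e-06), again without overlap. FASN, the synthase, had 36.5, 308 and 413 CPM in TR and 12.5, 9.69 and 59.9 CPM in PAR cells (log2 fold change 3.17 ± 0.98, adjusted p = 0.021). TR library 1 lay below PAR library 3, so the groups overlapped. FASN missed the threshold without TR library 3 or PAR library 1 or 2 (at log2 fold changes of 2.63 to 2.83). TR library 1 and PAR library 3 were also the libraries lowest and highest in GC-rich genes, whose part in this overlap was not tested. Further members, chosen after their values were seen, were SREBF1, the transcription factor of the pathway (log2 fold change 2.38 ± 0.61), ACLY (2.12 ± 0.31) and the elongase ELOVL6 (1.97 ± 0.27).

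Genes for taking up lipid were also more often higher than lower. Of 20 tested members (30 in the files), 9 were called higher and 3 lower, with a median of 0.87 (0.44 after GC correction and 1.42 without PAR library 3). CD36 lies on chromosome 7 at 80369575 to 80679277. It had 3908, 2556 and 2696 CPM in TR cells, against 6.38, 9.05 and 4.33 CPM in PAR cells (log2 fold change 8.91 ± 0.35, adjusted p = 4.2e-10). No PAR library reached 10, and the 9 drug-treated TR libraries ranged from 2073 to 3570 CPM. SCARB1, the receptor for high-density lipoprotein, had 103, 301 and 302 CPM in TR and 21.7, 18.4 and 31.4 CPM in PAR cells (log2 fold change 3.29 ± 0.42, adjusted p = 3.1e-05). The groups did not overlap, and TR library 1 was the lowest TR library. LRP8, another lipoprotein receptor, changed by 3.81 ± 0.26 and LIPA, the lysosomal lipase that frees cholesterol and fatty acids from lipoprotein, by 2.81 ± 0.17. The endothelial lipase LIPG had 165 counts in TR and 0 in PAR cells, at least 33.4-fold higher when set against 3 counts over the PAR group, as for every bound given below. The lower members were PLIN2 (-1.15 ± 0.26) and PLIN5 (-1.46 ± 0.33), which coat lipid droplets, and the receptor VLDLR (-1.27 ± 0.41). The call of VLDLR was lost without TR library 2 or 3 or PAR library 1 or 2 (at log2 fold changes of -1.26 to -1.05).

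Fatty acid oxidation was mixed, with 4 of 25 tested members higher, 5 lower and a median of 0.11, which GC correction took to -0.003. The excess of lower over higher calls turned round without PAR library 3, without TR library 1 and with no filter on low counts. Of the list, 36.0% was called, near the share of all genes. CPT1A, the gate to mitochondrial oxidation, was at 166, 231 and 217 CPM in TR and 155, 162 and 172 CPM in PAR cells and was not called (adjusted p = 0.073). The higher members included ACAA1, ECHS1 and ACAA2 (0.66 ± 0.16, not called with the 2 groups alone, adjusted p = 0.081). The coactivators PPARGC1A and PPARGC1B, which drive mitochondrial genes, fell. PPARGC1A had 3.15, 1.57 and 2.43 CPM in TR and 24.2, 25.9 and 16.7 CPM in PAR cells (log2 fold change -3.23 ± 0.32, adjusted p = 2.6e-06). PPARGC1B had 3.71, 3.37 and 4.48 CPM in TR and 23.7, 20.2 and 14.7 CPM in PAR cells (log2 fold change -2.33 ± 0.26, adjusted p = 8.2e-06). Neither overlapped. ACOX2, SLC25A20 and HADHB were the other lower members. No longer called were ACAA1 without TR library 2 or 3 or PAR library 1 or 2 (at log2 fold changes of 0.91 to 1.07), ECHS1 without TR library 2 or 3 or PAR library 1 or 2 (at log2 fold changes of 0.82 to 1.07), HADHB without TR library 1, 2 or 3 or PAR library 1 or 2 (at log2 fold changes of -0.35 to -0.27) and SLC25A20 without TR library 1, 2 or 3 or PAR library 3 (at log2 fold changes of -0.68 to -0.40), each left out alone.

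**Figure D2:**
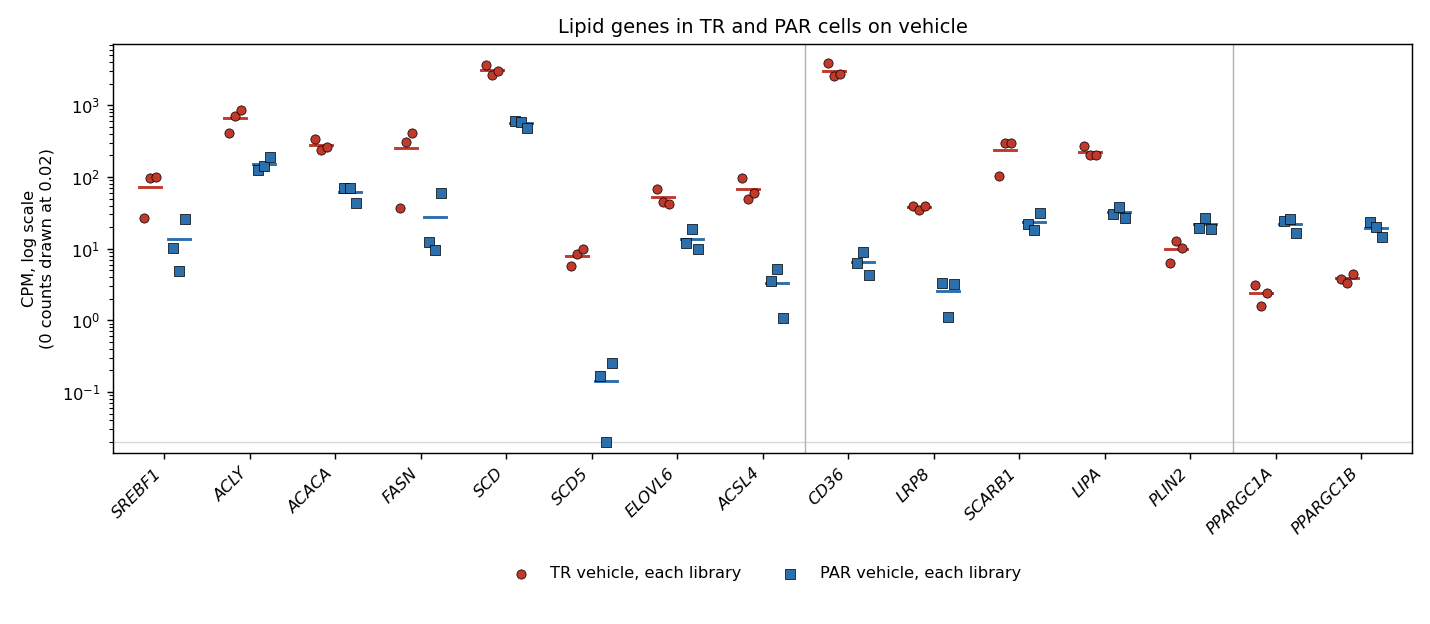
CPM (log scale) of 15 lipid genes in each library, TR vehicle (red circles) left of PAR vehicle (blue squares), with group means as lines and libraries with 0 counts drawn at 0.02. Grey lines separate synthesis, uptake and droplets, and coactivators. CD36 stands under 10 CPM in PAR libraries and far above that in TR libraries, FASN overlaps between groups, and PLIN2 and both coactivators are lower in TR libraries.

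Among hypoxia-inducible genes more were lower than higher. Of 22 tested members, 11 were lower and 3 higher, with a median log2 fold change of -0.75 (-0.73 after GC correction). STC2, a secreted glycoprotein induced by hypoxia and by oestrogen, had 218, 329.96 and 281 CPM in TR and 2288, 2359 and 2857 CPM in PAR cells (log2 fold change -3.18 ± 0.22, adjusted p = 7.8e-08). Every PAR library lay far above every TR library. VEGFA, the vascular growth factor, had 23.1, 39.4 and 47.3 CPM in TR and 103.5, 94.8 and 137 CPM in PAR cells (log2 fold change -1.61 ± 0.31, adjusted p = 0.0011). MXI1, an antagonist of MYC, had 14.2, 9.13 and 10.2 CPM in TR and 62, 69.4 and 49.6 CPM in PAR cells (log2 fold change -2.43 ± 0.23, adjusted p = 1.7e-06). Neither gene overlapped between groups. NDRG1, a stress-induced growth suppressor, changed by -2.12 ± 0.26. ANKRD37 and PPFIA4, whose promoters are shown above, had low levels, with log2 fold changes of -4.14 ± 0.79 and -2.51 ± 0.48.

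The 3 higher members of the hypoxia list went the other way by wide margins. EGLN3, a prolyl hydroxylase that marks HIF for destruction, had 86.3, 66.6 and 56 CPM in TR and 0.671, 0 and 0.619 CPM in PAR cells (log2 fold change 7.05 ± 0.42, adjusted p = 1.7e-08). All PAR libraries were under 1 CPM. EPAS1, which encodes HIF-2alpha, had 71.1, 83.8 and 89.6 CPM in TR and 17.2, 33.2 and 26.1 CPM in PAR cells (log2 fold change 1.68 ± 0.21, adjusted p = 3.1e-05), without overlap. The third, ANGPTL4, an inhibitor of lipoprotein lipase, rose by 3.31 ± 0.73. HIF1A itself was not called (adjusted p = 0.88), at 175, 104.2 and 103.8 CPM in TR and 152, 151.4 and 95.1 CPM in PAR cells, which overlapped.

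Glycolysis genes moved in both directions, and the share called, 36.4%, was near that of all genes. Of 22 tested genes, 6 were higher (10 without TR library 1 or PAR library 3) and 2 lower, with a median of 0.52 (0.84 to 1.25 without TR library 1 or PAR library 3). The hexokinases of the first step split. HK1, chosen after its values were seen, had 223, 311 and 318 CPM in TR and 187, 166 and 247 CPM in PAR cells (log2 fold change 0.50 ± 0.18, adjusted p = 0.045), and TR library 1 lay below PAR library 3. HK1 was no longer called without TR library 2 or 3 or PAR library 1 or 2 (at log2 fold changes of 0.39 to 0.46). HK2, the inducible hexokinase, had 19.3, 22.6 and 24.6 CPM in TR and 37.1, 43.5 and 39 CPM in PAR cells (log2 fold change -0.84 ± 0.16, adjusted p = 0.00078). PFKFB3, which makes the activator of phosphofructokinase, had 31, 38.6 and 39.1 CPM in TR and 243, 207 and 288 CPM in PAR cells (log2 fold change -2.76 ± 0.20, adjusted p = 1.2e-07). Neither HK2 nor PFKFB3 overlapped. Among genes of later steps, PGK1 was at 472, 616 and 574 CPM in TR and 234, 248 and 249 CPM in PAR cells (log2 fold change 1.19 ± 0.13, adjusted p = 1e-05), PGAM1 up by 1.06 ± 0.21 and PKM by 1.29 ± 0.26. LDHA, lactate dehydrogenase A, was at 581, 553 and 503 CPM in TR and 365, 407 and 362 CPM in PAR cells (log2 fold change 0.53 ± 0.12, adjusted p = 0.0038), without overlap, but was not called when the 2 groups were fitted alone (adjusted p = 0.074). LDHB was close to absent from both groups, with 0 counts over the TR and 9 over the PAR libraries.

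In the mitochondrion, 9 of 30 tested genes of pyruvate entry and the citric acid cycle were lower and 3 higher, with a median of -0.39. PDHB, the beta subunit of pyruvate dehydrogenase, had 14.5, 22.3 and 22.1 CPM in TR and 80.5, 82 and 127 CPM in PAR cells (log2 fold change -2.30 ± 0.26, adjusted p = 1.1e-05). GOT1, the cytosolic aspartate transaminase of the malate-aspartate shuttle, had 41.4, 82.8 and 79.5 CPM in TR and 174, 233 and 260.1 CPM in PAR cells (log2 fold change -1.71 ± 0.27, adjusted p = 0.00019). Both were separated between groups. SDHD, a succinate dehydrogenase subunit, changed by -1.05 ± 0.21. The higher members included the glutaminase GLS2 (1.23 ± 0.29, not called with the 2 groups alone, adjusted p = 0.060) and the malic enzyme ME2.

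Of genes that use amino acids for 1-carbon units, 5 of 20 tested members were lower and 1 higher, with a median of -0.17 (-0.34 to -0.27 after GC correction or without TR library 3 or PAR library 1 or 2 and -0.03 to 0.02 without TR library 1 or PAR library 3). MTHFD2, the mitochondrial folate enzyme, had 179, 150.3 and 147 CPM in TR and 438, 473 and 388 CPM in PAR cells (log2 fold change -1.45 ± 0.13, adjusted p = 1.6e-06). ALDH1L2, which oxidises formyl-folate in mitochondria, changed by -2.34 ± 0.27 and PSAT1, of serine synthesis, by -0.85 ± 0.15. MTHFS and MTHFD1L were the other lower members. Calls were lost for MTHFS without TR library 3 or PAR library 1 or 2 (at log2 fold changes of -1.77 to -1.48) and MTHFD1L without TR library 1 or 3 or PAR library 2 (at log2 fold changes of -0.65 to -0.53), each left out alone. The higher member was GLDC, glycine decarboxylase, at 41.8, 51.7 and 49.999 CPM in TR and 3.02, 4.45 and 3.09 CPM in PAR cells (log2 fold change 3.80 ± 0.18, adjusted p = 2.6e-09). It lies on chromosome 9, where most called genes were lower. PHGDH, the first enzyme of serine synthesis, overlapped between groups and was not called (adjusted p = 0.74).

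Nucleotide synthesis showed little, with 3 of 29 tested members higher (TK1, HPRT1 at 1.64 ± 0.19, and PRPS1 at 0.75 ± 0.15) and 4 lower (TK2, ADSS2, ATIC and UCK2), both under the shares of all genes. The median was 0.11 (-0.07 to 0.04 after GC correction or without PAR library 1 and 0.29 without PAR library 3), and GC correction gave 7 higher and 9 lower. Which direction held more members changed under 6 of the alternatives. No longer called were TK1 without TR library 2 or 3 or PAR library 1 or 2 (at log2 fold changes of 1.76 to 2.03), TK2 without PAR library 3 (at a log2 fold change of -0.77), ADSS2 without TR library 2 or 3 or PAR library 1 or 2 (at log2 fold changes of -0.78 to -0.57) and UCK2 without TR library 1 or 3 or PAR library 2 or 3 (at log2 fold changes of -0.36 to -0.32), each left out alone. Polyamine and arginine genes were higher in 7 of 17 tested members and lower in 0 (median 0.70). SAT1, which acetylates polyamines for export and breakdown, had 179, 169 and 164 CPM in TR and 43.9, 40.5 and 38.9 CPM in PAR cells (log2 fold change 2.06 ± 0.16, adjusted p = 2.1e-07). ARG2, mitochondrial arginase, changed by 1.14 ± 0.19 and OAT by 1.02 ± 0.18. ODC1, the first enzyme of polyamine synthesis, was not called (adjusted p = 0.75), at 50.8, 47.4 and 34.3 CPM in TR and 42.3, 48.3 and 33.8 CPM in PAR cells.

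NRF2 targets, which protect against oxidants, were higher in 10 of 27 tested members and lower in 4, with a median of 0.49 (0.19 to 0.32 after GC correction or without TR library 2 or 3 or PAR library 1 or 2). GC correction gave 10 higher and 8 lower, and there were 6 higher without PAR library 1 or 2. ABCC3, an exporter of organic anions and conjugates, had 46.7, 91.8 and 112 CPM in TR and 3.44, 4.45 and 4.48 CPM in PAR cells (log2 fold change 4.34 ± 0.38, adjusted p = 9.3e-07). NQO1, a quinone reductase, had 215, 207 and 199 CPM in TR and 65.8, 88.8 and 78.2 CPM in PAR cells (log2 fold change 1.42 ± 0.15, adjusted p = 4.5e-06). Neither overlapped. The lower members were TRIM16L, TXN, UGDH and FTH1, and TXN lost its call without TR library 3 (log2 fold change -0.75). Glutathione transferases and peroxidases were mixed, with 4 of 15 tested members higher and 3 lower. Their median was 0.14 (-0.02 to 0.04 after GC correction or without TR library 2 or PAR library 1 and 0.27 to 0.41 without TR library 1 or PAR library 3). GPX3, a secreted peroxidase, rose by 3.00 ± 0.22 and GSTM3 changed by -1.61 ± 0.21. MGST1 and GSTA4 were among the higher members, and GSTM4 and GSTM2 the other lower members. GSTM2 lost its call without TR library 1, 2 or 3 or PAR library 1 or 3 (at log2 fold changes of -0.54 to -0.36). GPX4 was not called (adjusted p = 0.57), and GSTP1 had 0 counts in all 6 libraries.

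Metal handling leaned upward, with 16 of 38 tested members higher and 3 lower (median 0.53), but only 6 higher and 2 lower when the 2 groups were fitted alone. SLC39A8, an importer of zinc, iron and manganese, had 51.6, 41.5 and 38.4 CPM in TR and 6.88, 6.67 and 8.66 CPM in PAR cells (log2 fold change 2.55 ± 0.19, adjusted p = 1.7e-07). STEAP2, a metalloreductase, rose by 1.83 ± 0.25. The iron exporter ferroportin, SLC40A1, had 336, 275 and 313 CPM in TR and 742, 811 and 681 CPM in PAR cells (log2 fold change -1.28 ± 0.12, adjusted p = 1.7e-06). The copper importer SLC31A1 had 117, 92.7 and 92.2 CPM in TR and 441, 496 and 254 CPM in PAR cells (log2 fold change -1.98 ± 0.25, adjusted p = 3.4e-05). Neither transporter overlapped between groups. STEAP3 was the other lower member. STEAP3 was no longer called without TR library 1 or 2 or PAR library 3 (at log2 fold changes of -0.70 to -0.58). The transferrin receptor TFRC had an adjusted p of 0.052 with all TR libraries above all PAR libraries. The zinc importer SLC39A6 overlapped and was not called (adjusted p = 0.95).

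Ribosomal protein genes were more often lower, and proteasome genes more often higher, in TR cells. Of 84 tested cytosolic ribosomal protein genes, 25 were lower (15 without TR library 3 or PAR library 2) and 1 (RPL7L1) higher, with a median of -0.45 (-0.23 to -0.22 without TR library 1 or PAR library 3). RPL24 had 309, 539.99 and 449 CPM in TR and 827, 1078 and 859 CPM in PAR cells (log2 fold change -1.09 ± 0.22, adjusted p = 0.0017), and the groups did not overlap. Many of these genes have processed pseudogenes, and how reads matching several places were counted is not given in the sources used here, so these levels are uncertain. Of 35 tested genes of ribosome assembly, 5 were lower (GNL3, NPM1, WDR12, DKC1 and GAR1) and 1 (NOP2) higher, both under the shares of all genes, against 17 lower after GC correction, 8 lower without TR library 1 and 3 higher without PAR library 3. NPM1, the nucleolar chaperone, had 1672, 1666 and 1451 CPM in TR and 2461, 2859.8 and 2361 CPM in PAR cells (log2 fold change -0.68 ± 0.15, adjusted p = 0.0024). The direction of that list turned round in the test against a 1.5-fold change. WDR12 missed the threshold without TR library 2 or 3 or PAR library 1 or 2 (at log2 fold changes of -0.57 to -0.51). WDR12, DKC1 and GAR1 were not called with no filter on low counts (adjusted p = 0.089, 0.057 and 0.22). Nor were these 3 genes called when the 2 groups were fitted alone (adjusted p = 0.086, 0.055 and 0.10). Of 10 tested members of the MYC network, 4 were lower (MYC, MAX, MYCL and MGA) and 0 higher (1 higher without TR library 1 or PAR library 3). MYC had 11.4, 28.7 and 24.1 CPM in TR and 52.6, 45.9 and 80.7 CPM in PAR cells (log2 fold change -1.48 ± 0.36, adjusted p = 0.0056). Its dimer partner MAX had 26.1, 34.6 and 35.1 CPM in TR and 60.9, 75 and 62.7 CPM in PAR cells (log2 fold change -1.05 ± 0.17, adjusted p = 0.00022). Neither overlapped. Calls lapsed for MYCL without TR library 1 or 2 or PAR library 3 (at log2 fold changes of -0.75 to -0.69) and MGA without TR library 2 or 3 or PAR library 1 or 2 (at log2 fold changes of -0.79 to -0.71), each left out alone.

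The proteasome, which degrades ubiquitin-tagged proteins, was higher in 18 of 46 tested members and lower in 1 (PSMG1, an assembly factor), with a median of 0.65 (0.42 without TR library 2). PSMD2, a subunit of the regulatory cap, had 516, 766 and 710.4 CPM in TR and 246, 243 and 228 CPM in PAR cells (log2 fold change 1.48 ± 0.16, adjusted p = 7.7e-06). PSMD11 rose by 1.07 ± 0.14, PSMD7 by 1.12 ± 0.15 and PSMD14, the deubiquitinase of the cap, by 1.12 ± 0.15. The immunoproteasome subunit PSMB8 overlapped and was not called (adjusted p = 0.23). PSMG1 lost its call without TR library 2 or 3 or PAR library 2 (at log2 fold changes of -0.61 to -0.38). Cytosolic chaperones were higher in 9 of 31 tested members and lower in 1 (median 0.39). HSP90AA1, the inducible HSP90, had 3415, 2403 and 2278 CPM in TR and 1154, 1289.6 and 1117 CPM in PAR cells (log2 fold change 1.19 ± 0.22, adjusted p = 0.00074). BAG3, a partner of HSP70, rose by 1.51 ± 0.24. The co-chaperones of steroid receptors split: FKBP5 had 260.4, 201 and 199.7 CPM in TR and 113, 126 and 90.9 CPM in PAR cells (log2 fold change 1.01 ± 0.19, adjusted p = 0.00093), while FKBP4 had 225, 294 and 253 CPM in TR and 506, 568 and 546 CPM in PAR cells (log2 fold change -1.07 ± 0.13, adjusted p = 2.3e-05). Both were separated between groups.

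Genes for entry to the secretory pathway were more often lower than higher. Of 44 tested genes of the translocon, signal peptidase and COPII coat, 14 were lower and 3 (SEC61A2, SEC23A and SEC24C) higher, with a median of -0.29. SRPRB, which docks ribosomes at the endoplasmic reticulum, had 66.6, 64.4 and 54.1 CPM in TR and 118, 159 and 115 CPM in PAR cells (log2 fold change -1.08 ± 0.17, adjusted p = 0.00022). SPCS2, of signal peptidase, changed by -1.04 ± 0.16 and SEC24D, a cargo adaptor of COPII vesicles, by -1.01 ± 0.14. SEC23A was no longer called without TR library 1 or PAR library 3 (at log2 fold changes of 0.41 to 0.45). N-glycosylation was lower in 11 of 45 tested members (6 without TR library 3, 7 without PAR library 1 or 2) and higher in 5, with a median of -0.10 (-0.24 to -0.18 after GC correction or without PAR library 2), and the excess turned round in the test against a 1.5-fold change. Its share of calls was 35.6%, near that of all genes. RPN1, of the oligosaccharyltransferase, had 169, 191 and 171 CPM in TR and 494, 571 and 437 CPM in PAR cells (log2 fold change -1.50 ± 0.14, adjusted p = 1.4e-06), without overlap. The higher members act mostly late in the pathway, and were FUT8 (1.95 ± 0.30), MGAT5 (1.18 ± 0.17), MGAT4A, MGAT4B and the transferase subunit TUSC3 (1.11 ± 0.19). Calls lapsed for MGAT4A without TR library 1 or PAR library 1, 2 or 3 (at log2 fold changes of 0.29 to 0.64) and MGAT4B without TR library 2 or 3 or PAR library 1 or 2 (at log2 fold changes of 0.97 to 1.03), each left out alone.

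Mucin-type O-glycosylation genes were higher far more often than lower. Of 78 genes of that list 39 were tested, 20 were higher and 2 (GALNT5 and FUT3) lower, with a median of 0.99. GALNT6, which places the first sugar on mucins, had 117, 210.1 and 213 CPM in TR and 25.9, 31 and 30.2 CPM in PAR cells (log2 fold change 2.63 ± 0.23, adjusted p = 7.4e-07). GALNT12, of the same family, had 13.8, 14.9 and 12 CPM in TR and 0, 0.318 and 0.255 CPM in PAR cells (log2 fold change 6.11 ± 0.42, adjusted p = 7.9e-08). No TR library overlapped a PAR library in either gene. GALNT2 rose by 2.44 ± 0.19 and GALNT11 by 1.82 ± 0.14. The sialyltransferase ST3GAL5 had 181 counts over TR and 1 over PAR libraries, a ratio of 109.8 (95% counting interval 19.5 to 4359), an exact interval that covers counting error only. GALNT14 had 623 counts in TR and 0 in PAR cells, at least 126-fold higher. The branching enzyme GCNT2 had 374 counts in TR and 0 in PAR cells, at least 75.6-fold higher. MUC1, a carrier of these glycans, was not called (adjusted p = 0.12), at 397, 576 and 582 CPM in TR and 429, 334 and 442 CPM in PAR cells, which overlapped. The call of FUT3 was lost without TR library 1, 2 or 3 or PAR library 1 or 3 (at log2 fold changes of -2.89 to -2.21).

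Secretory products of luminal cells were mostly lower. Of 18 tested members (32 in the files), 11 were lower and 4 higher, with a median log2 fold change of -1.30. PIP, the prolactin-inducible protein, had 18.4, 35.3 and 29 CPM in TR and 1361, 1548 and 1031 CPM in PAR cells (log2 fold change -5.57 ± 0.38, adjusted p = 6.4e-08). CRISP3, a cysteine-rich secretory protein, had 29, 16.4 and 16.5 CPM in TR and 2334, 2470.5 and 1359 CPM in PAR cells (log2 fold change -6.64 ± 0.34, adjusted p = 4.9e-09). Every PAR library lay far above every TR library for each gene. The 9 drug-treated TR libraries ranged from 20.03 to 66.6 CPM of PIP and from 17.9 to 31.7 CPM of CRISP3. AZGP1, a lipid-mobilising glycoprotein, had 2.32, 3.29 and 3.52 CPM in TR and 119, 98 and 95.6 CPM in PAR cells (log2 fold change -5.09 ± 0.22, adjusted p = 9.3e-10). AGR2, a disulphide isomerase of mucous cells, had 388, 402 and 328 CPM in TR and 962, 1079 and 841 CPM in PAR cells (log2 fold change -1.37 ± 0.18, adjusted p = 5.1e-05). PRLR, the prolactin receptor, had 4212, 1909 and 2832 CPM in TR and 8129, 7067 and 4082 CPM in PAR cells (log2 fold change -1.11 ± 0.30, adjusted p = 0.01). TR library 1 lay above PAR library 3, and PRLR was not called with the 2 groups alone (adjusted p = 0.066).

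The 4 higher secretory genes were SCGB2A2, SCGB1D2, MFGE8 and CLU. SCGB2A2, which encodes mammaglobin, had 6.55, 9.02 and 15.3 CPM in TR and 0, 0 and 0.146 CPM in PAR cells (log2 fold change 6.87 ± 0.69, adjusted p = 3.1e-06). SCGB1D2, its partner, had 58 counts in TR and 1 in PAR cells, a ratio of 35.2 (95% counting interval 6.07 to 1413). MFGE8, a milk fat globule protein, had 4.49, 9.28 and 9.75 CPM in TR and 0.587, 0 and 1.2 CPM in PAR cells (log2 fold change 3.44 ± 0.56, adjusted p = 0.00027). CLU, the extracellular chaperone clusterin, had 1101, 3035 and 2704 CPM in TR and 491, 534 and 983 CPM in PAR cells (log2 fold change 1.77 ± 0.38, adjusted p = 0.0024). In all 4 genes the TR libraries lay above the PAR libraries.

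**Figure D3:**
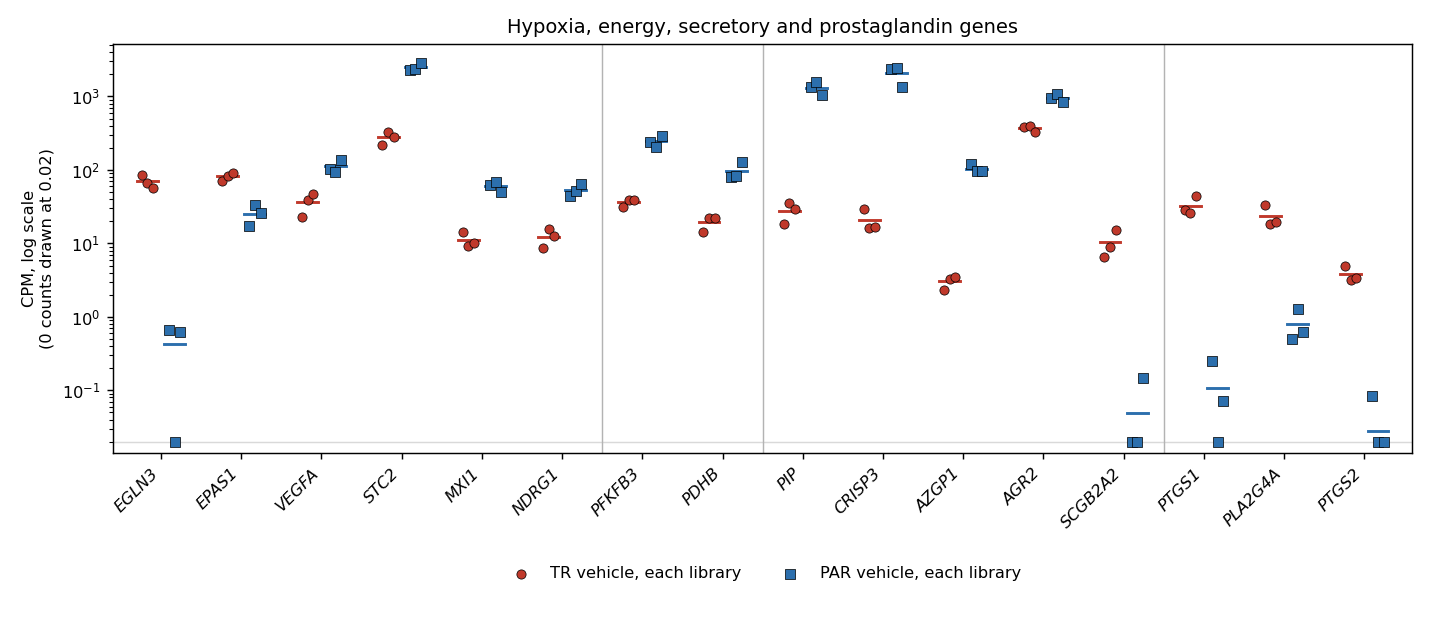
CPM (log scale) of 16 genes in each library, TR vehicle (red circles) left of PAR vehicle (blue squares), with group means as lines and libraries with 0 counts drawn at 0.02. Grey lines separate hypoxia genes, energy genes, secretory products and prostaglandin genes. EGLN3, SCGB2A2 and the prostaglandin genes are higher, and PIP, CRISP3 and AZGP1 far lower, in TR libraries.

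Prostaglandin genes were higher more often than lower. Cyclo-oxygenases make prostaglandins from arachidonic acid that phospholipase A2 releases, and HPGD inactivates them. Of 33 genes of prostaglandins and leukotrienes, 19 were tested, 10 were higher and 3 lower, with a median of 1.20. PLA2G4A, the cytosolic phospholipase, had 33.3, 18.4 and 19.8 CPM in TR and 0.503, 1.27 and 0.619 CPM in PAR cells (log2 fold change 5.04 ± 0.41, adjusted p = 4.3e-07). PTGS1, the constitutive cyclo-oxygenase, had 28.2, 25.8 and 43.8 CPM in TR and 0.252, 0 and 0.0728 CPM in PAR cells (log2 fold change 8.12 ± 0.42, adjusted p = 4.6e-09). In both genes every PAR library was under 2 CPM. The inducible cyclo-oxygenase PTGS2 had 4.95, 3.14 and 3.39 CPM in TR and 1 count in all over the PAR libraries, a ratio of 169 (95% counting interval 30.1 to 6706). HPGD had 11.1, 8.42 and 6.81 CPM in TR and 0 counts in PAR cells, at least 129-fold higher. ALOX5, of leukotriene synthesis, had 420 counts in TR and 2 in PAR cells, a ratio of 127 (95% counting interval 35 to 1055). The prostaglandin transporter SLCO2A1 rose by 3.88 ± 0.54, and the exporter ABCC4 had 114 counts in TR and 0 in PAR cells, at least 23-fold higher. The receptors PTGER4 and PTGER3 fell, with PTGER4 at 4.54, 5.05 and 4.1 CPM in TR and 12, 9.85 and 13.9 CPM in PAR cells (log2 fold change -1.39 ± 0.26, adjusted p = 0.00078), followed by PTGER3 (-0.75 ± 0.22). ALOX15 was the third lower member. PTGER3 lost its call without TR library 2 or 3 or PAR library 1 (at log2 fold changes of -0.67 to -0.58).

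Complement, coagulation and plasminogen genes had the largest share of higher members among the 55 lists, 17 of 24 tested (39 in the files), with 2 lower and a median of 1.48. C3, the central complement protein, had 8.46, 26.2 and 31.1 CPM in TR and 2.27, 2.22 and 3.64 CPM in PAR cells (log2 fold change 2.98 ± 0.49, adjusted p = 0.00031). PROCR, the endothelial protein C receptor, had 10.6, 31.9 and 26.7 CPM in TR and 0.587, 0 and 0.327 CPM in PAR cells (log2 fold change 6.04 ± 0.60, adjusted p = 3.1e-06). PROS1, protein S, had 524 counts in TR and 3 in PAR cells, a ratio of 106 (95% counting interval 36 to 515). The plasminogen activator PLAU had 94 counts in TR and 1 in PAR cells, a ratio of 57 (95% counting interval 9.98 to 2275). All 4 genes were separated between groups. The lower members were CD55, which shields cells from complement, at 79.3, 58.2 and 49.1 CPM in TR and 261, 260.2 and 187 CPM in PAR cells (log2 fold change -1.92 ± 0.22, adjusted p = 1.2e-05), and C5 (-1.59 ± 0.26). C1R, C1S, CFB and SERPING1 in this list are also known interferon targets.

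Ligands and receptors of the TNF superfamilies were more often called higher than lower. Of 21 tested members of the TNF and TNF receptor superfamilies (44 in the files), 11 were higher and 1 (TNFSF13B) lower, with a median of 0.88 (1.69 without PAR library 3). TNFSF15, a ligand of the family, had 38.4, 24.3 and 26.4 CPM in TR and 1.09, 2.38 and 0.764 CPM in PAR cells (log2 fold change 4.57 ± 0.33, adjusted p = 1.2e-07). CD40 had 4.69, 6.62 and 6.16 CPM in TR and 0.252, 0.953 and 0.4 CPM in PAR cells (log2 fold change 3.61 ± 0.38, adjusted p = 5.1e-06). TNFRSF11A, which encodes the receptor RANK, had 3.51, 3.14 and 3.39 CPM in TR and 0, 0 and 0.291 CPM in PAR cells (log2 fold change 4.4 ± 0.56, adjusted p = 3.1e-05). None of the 3 overlapped between groups. TNFSF10, which encodes TRAIL, was not called (adjusted p = 0.35). TNFSF13B was no longer called without TR library 1, 2 or 3 or PAR library 2 (at log2 fold changes of -2.61 to -1.89). NF-kB targets and cytokines were mixed, with 5 of 20 tested members higher (IL32 at 3.35 ± 0.50, BIRC3 at 2.47 ± 0.39, IL11, TNF and IL18) and 4 lower (ICAM1 at -1.93 ± 0.42, NFKBIZ at -1.22 ± 0.27, TRAF1 and CSF1). Without PAR library 3 there were 8 higher members. The excess of higher members turned round when the 2 groups were fitted alone. IL18 missed the threshold without PAR library 1 (at a log2 fold change of 0.62). CXCL8 had 0 counts in all 6 libraries.

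Wnt ligands signal through Frizzled receptors, and AXIN2, RNF43 and DKK1 are feedback inhibitors induced by the pathway in many tissues. Of 22 tested Wnt ligands and receptors (40 in the files), 9 were higher and 1 (WNT8B) lower, with a median of 0.76 (0.44 after GC correction). WLS, which carries Wnt ligands to the cell surface, had 32.6, 35.5 and 33 CPM in TR and 2.27, 2.06 and 2 CPM in PAR cells (log2 fold change 4.00 ± 0.16, adjusted p = 5.1e-10). LGR4, the R-spondin receptor, had 170.2, 108 and 119 CPM in TR and 18.8, 18.9 and 16.2 CPM in PAR cells (log2 fold change 2.89 ± 0.20, adjusted p = 6.4e-08). Both were separated by a wide gap. FZD5 rose by 2.06 ± 0.25 and PTK7, a co-receptor, by 2.01 ± 0.47. WNT5A had 154 counts in TR and 1 in PAR cells, a ratio of 93.4 (95% counting interval 16.5 to 3712). Of 17 tested inhibitors and feedback targets, 8 were higher and 2 (TLE1 and GSK3B) lower, with a median of 0.34 (0.59 to 1.30 without TR library 1 or PAR library 2 or 3). AXIN2 had 1.39, 2.02 and 2.12 CPM in TR and 0, 0 and 0.182 CPM in PAR cells (log2 fold change 4.16 ± 0.67, adjusted p = 0.00025). DKK1 had 371 counts in TR and 2 in PAR cells, a ratio of 112 (95% counting interval 30.9 to 932). The corepressor TLE1 had 3.25, 6.06 and 5.16 CPM in TR and 18.9, 25.9 and 28.2 CPM in PAR cells (log2 fold change -2.33 ± 0.32, adjusted p = 6.8e-05), without overlap. SFRP1 had 0 counts in all 6 libraries. No longer called were WNT8B without TR library 1 or 2 or PAR library 2 (at log2 fold changes of -2.32 to -1.10) and GSK3B without TR library 2 or 3 or PAR library 1 or 2 (at log2 fold changes of -0.66 to -0.50), each left out alone.

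Notch genes changed in both directions. Of 30 tested members, 7 were higher and 5 lower, both near the shares of all genes. The median was -0.10 (-0.26 after GC correction and 0.05 to 0.20 without TR library 1 or PAR library 3). GC correction, the fit of the 2 groups alone and leaving out TR library 1 each turned the excess round. Among the called members named here, the ligands JAG1 and DLL1 rose and the target genes HES1, HEY2 and NRARP fell. HEY1 leaned the other way from HEY2 but had too few counts to be tested. It had 9, 9 and 4 counts in the TR libraries and 2, 0 and 2 counts in the PAR libraries. JAG1 had 12.5, 12.6 and 14.5 CPM in TR and 1.59, 1.59 and 1.02 CPM in PAR cells (log2 fold change 3.28 ± 0.25, adjusted p = 1.8e-07). DLL1 had 5.47, 15.4 and 17 CPM in TR and 1.26, 1.11 and 2.87 CPM in PAR cells (log2 fold change 2.76 ± 0.52, adjusted p = 0.00089). HES1, a repressor induced by Notch, had 47.6, 41.6 and 37.2 CPM in TR and 159.5, 247 and 163 CPM in PAR cells (log2 fold change -2.17 ± 0.19, adjusted p = 7.1e-07). NRARP, a feedback inhibitor induced by Notch, had 6.76, 10.4 and 8.89 CPM in TR and 21.6, 38.4 and 19.1 CPM in PAR cells (log2 fold change -1.60 ± 0.32, adjusted p = 0.0013). None of these overlapped between groups. HEY2, also a Notch target, had 0.155, 0.112 and 0.239 CPM in TR and 4.2, 4.45 and 4.37 CPM in PAR cells (log2 fold change -4.62 ± 0.56, adjusted p = 1.9e-05), and APH1A and NUMB were the other lower members. APH1A lost its call without TR library 1 or PAR library 2 or 3 (at log2 fold changes of -0.66 to -0.47). NOTCH1 was not called (adjusted p = 0.69). NOTCH3 was called higher, but not without TR library 3 (at a log2 fold change of 1.32) or when the 2 groups were fitted alone.

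Of 11 tested Hedgehog genes, 4 were higher (BOC, DISP3, GPR161 and SMO) and 2 lower (GLI3 and CDON), with a median of 0.77 (0.51 without PAR library 1). BOC, a co-receptor of Hedgehog ligands, had 8.46, 15.4 and 19.4 CPM in TR and 0.0839, 0.635 and 0.291 CPM in PAR cells (log2 fold change 5.60 ± 0.57, adjusted p = 3.5e-06). The related co-receptor CDON had 21.6, 15.3 and 18.8 CPM in TR and 38.5, 40.2 and 27 CPM in PAR cells (log2 fold change -0.92 ± 0.24, adjusted p = 0.0078), so the 2 co-receptors went in opposite directions. PTCH1, the usual readout of the pathway, overlapped and was not called (adjusted p = 0.12). SMO was no longer called without TR library 2 or 3 or PAR library 1 or 2 (at log2 fold changes of 1.46 to 1.57). Of 30 tested BMP and activin genes, 14 were higher and 4 (ID2, SMAD1, SMAD5 and BAMBI) lower, with a median of 0.64 (0.42 without TR library 3). With the 2 groups fitted alone, 6 were higher and 0 lower. GDF11, a ligand, had 139, 108 and 118 CPM in TR and 26.2, 21.8 and 19.1 CPM in PAR cells (log2 fold change 2.45 ± 0.18, adjusted p = 1.8e-07). CHRD, the BMP antagonist chordin, had 4.08, 19.6 and 22.2 CPM in TR and 0, 0.159 and 0.146 CPM in PAR cells (log2 fold change 7.09 ± 0.92, adjusted p = 3.6e-05). Each was separated between groups. The antagonists FSTL1 (1.52 ± 0.19) and TWSG1 (1.28 ± 0.20) were also higher. The BMP target genes ID1 and ID3 overlapped and were not called (adjusted p = 0.52 and 0.53). No longer called were ID2 without TR library 1 or 3 or PAR library 2 or 3 (at log2 fold changes of -0.78 to -0.64) and SMAD5 without TR library 2 or 3 or PAR library 1 or 2 (at log2 fold changes of -0.68 to -0.57), each left out alone.

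In the PI3K pathway, 10 of 43 tested members were higher and 5 lower, with a median of 0.22 (0.03 to 0.13 after GC correction or without PAR library 2), and after GC correction 13 were higher and 14 lower. The share of this list that was called, 34.9%, was near that of all genes. The regulatory subunits PIK3R1 and PIK3R3 were higher. PIK3R1, which encodes p85alpha, had 738, 421 and 471 CPM in TR and 86.8, 92.3 and 57.2 CPM in PAR cells (log2 fold change 2.79 ± 0.26, adjusted p = 1.7e-06). PIK3R3, which encodes p55gamma, had 147, 121 and 139 CPM in TR and 25.3, 30.8 and 19.9 CPM in PAR cells (log2 fold change 2.43 ± 0.16, adjusted p = 5.6e-08). SGK3, a kinase that PI3K activates in parallel to AKT, had 5.42, 3.97 and 3.93 CPM in TR and 37.8, 33.7 and 31.6 CPM in PAR cells (log2 fold change -2.95 ± 0.30, adjusted p = 3.2e-06). The TR and PAR libraries were apart in all 3 genes. FOXO1, TSC1, PIK3C2B and DEPTOR were the other lower members. Calls lapsed for FOXO1 without TR library 3 or PAR library 2 (at log2 fold changes of -1.28 to -0.94), PIK3C2B without TR library 1 or 2 or PAR library 1 or 3 (at log2 fold changes of -0.63 to -0.47) and DEPTOR without TR library 2 or PAR library 2 (at log2 fold changes of -0.44 to -0.38), each left out alone. The phosphatase INPP4B was not called (adjusted p = 0.76).

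Second messenger genes changed widely. Of 43 tested cyclases, phosphodiesterases, protein kinase A subunits and anchors, 19 were higher and 7 lower, with a median of 0.57. PDE4D, a cAMP phosphodiesterase, had 55.8, 29.5 and 34.5 CPM in TR and 0.587, 0 and 0.327 CPM in PAR cells (log2 fold change 6.82 ± 0.42, adjusted p = 2.2e-08). ADCY2, an adenylyl cyclase, had 41, 61.4 and 67.1 CPM in TR and 4.7, 3.81 and 5.71 CPM in PAR cells (log2 fold change 3.54 ± 0.24, adjusted p = 5e-08). PDE5A rose by 2.58 ± 0.33. The regulatory subunits of protein kinase A split, with PRKAR2B at 16, 9.76 and 11.9 CPM in TR and 2.35, 4.29 and 2.15 CPM in PAR cells (log2 fold change 2.15 ± 0.31, adjusted p = 8.7e-05) and PRKAR2A at 105, 72.8 and 76.3 CPM in TR and 224, 206 and 130.3 CPM in PAR cells (log2 fold change -1.14 ± 0.22, adjusted p = 0.001). Neither subunit overlapped between groups. Heterotrimeric G proteins and RGS proteins were mixed, with 8 of 37 tested members higher, 6 lower and a median of 0.29 (0.07 to 0.19 after GC correction or without TR library 2 or 3 or PAR library 1 or 2 and 0.66 without PAR library 3). Their share of calls was 37.8%, near that of all genes. GNG11, a gamma subunit, had 4.13, 5.61 and 4.14 CPM in TR and 152, 244 and 258 CPM in PAR cells (log2 fold change -5.55 ± 0.35, adjusted p = 3.1e-08). RGS6, which switches G proteins off, had 6.04, 3.74 and 5.85 CPM in TR and 0.168, 0 and 0.146 CPM in PAR cells (log2 fold change 5.29 ± 0.48, adjusted p = 1.3e-06). S100 proteins and annexins, which bind calcium, were higher in 11 of 22 tested members and lower in 1 (ANXA9, -1.65 ± 0.38), with a median of 0.79 (0.51 without PAR library 1). S100A14 had 23.1, 57.5 and 52.8 CPM in TR and 0.168, 0.318 and 1.96 CPM in PAR cells (log2 fold change 5.42 ± 0.60, adjusted p = 8.5e-06), and ANXA1, which restrains phospholipase A2, rose by 3.68 ± 0.33.

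Nuclear receptors other than those for oestrogen and progesterone changed in both directions. Of 33 tested receptors, 7 were higher and 7 lower, with a median of 0.11 (-0.32 to -0.04 after GC correction or without TR library 2 or 3 or PAR library 1 or 2 and 0.26 without TR library 1 or PAR library 3). NR3C1, the glucocorticoid receptor, had 11.1, 5.31 and 6.05 CPM in TR and 37.3, 43.8 and 26.1 CPM in PAR cells (log2 fold change -2.26 ± 0.30, adjusted p = 4.8e-05). It was lower in every TR library than in any PAR library. PPARG, the fat cell regulator that induces CD36 and other lipid genes in adipocytes, had 154 counts in TR and 0 in PAR cells, at least 31.1-fold higher. VDR, the vitamin D receptor, was not called (adjusted p = 0.054).

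Genes induced by androgen and glucocorticoid split. Of 21 tested members, 10 were higher and 5 (DUSP1, UGT2B15, ZBTB16, KLF9 and NDRG1) lower, with a median of 0.97 (0.57 without PAR library 2). PMEPA1, an androgen- and TGF-beta-induced membrane protein, had 137, 186 and 199 CPM in TR and 1.09, 0.794 and 1.09 CPM in PAR cells (log2 fold change 7.39 ± 0.23, adjusted p = 4.5e-11). The 9 drug-treated TR libraries ranged from 122 to 194 CPM. KLF9, a glucocorticoid-induced factor, had 16, 11.2 and 11.6 CPM in TR and 58.5, 83.1 and 56.8 CPM in PAR cells (log2 fold change -2.35 ± 0.21, adjusted p = 9.5e-07). DUSP1, a phosphatase induced by glucocorticoid and by growth factors, had 2.68, 3.7 and 3.01 CPM in TR and 19.7, 21 and 38.3 CPM in PAR cells (log2 fold change -3.07 ± 0.36, adjusted p = 1.5e-05). FKBP5, induced by both hormones and described above, was higher. All 4 genes were separated between groups. KLK3 had 0 counts in all 6 libraries.

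Clock genes changed in both directions, with 7 of 24 tested members lower, 5 higher and a median of -0.27 (-0.48 to -0.42 after GC correction or without PAR library 2). With no filter on low counts 6 were lower and 6 higher. NR1D2, a repressor of the clock, had 56.1, 31.8 and 36.9 CPM in TR and 155, 159 and 117 CPM in PAR cells (log2 fold change -1.79 ± 0.22, adjusted p = 1.9e-05). CIART, also a repressor, had 1.7, 2.02 and 2.15 CPM in TR and 20.9, 25.1 and 19.5 CPM in PAR cells (log2 fold change -3.47 ± 0.25, adjusted p = 1.2e-07). NPAS2, a partner of BMAL proteins, had 5.06, 3.48 and 4.31 CPM in TR and 0.42, 0 and 0.764 CPM in PAR cells (log2 fold change 3.13 ± 0.48, adjusted p = 0.00015). No library of one group reached the other in these 3 genes. BHLHE41, a repressor, had 173 counts in TR and 2 in PAR cells, a ratio of 52.5 (95% counting interval 14.3 to 437). RORA, BMAL2 and TIMELESS were the other higher members. TIMELESS lost its call without TR library 2 or 3 or PAR library 1 or 2 (at log2 fold changes of 0.61 to 0.71). PER2 was not called (adjusted p = 0.74). The time of harvest was not given in the sources used here, so a difference in phase and a difference in level cannot be told apart.

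Transcription factors that mark breast epithelium changed in both directions. Of 35 tested GATA, TFAP2, ELF, GRHL and related factors, 10 were higher and 12 lower, with a median of -0.07 (-0.37 to -0.19 after GC correction or without TR library 1, 2 or 3 or PAR library 1 or 2), and the excess turned round with no filter on low counts. RUNX1 had 3.1, 2.28 and 1.95 CPM in TR and 82.7, 77.5 and 54.6 CPM in PAR cells (log2 fold change -4.88 ± 0.31, adjusted p = 3.6e-08). MYB, an oestrogen-induced oncogene, had 14.3, 11 and 10.7 CPM in TR and 99, 124 and 83.1 CPM in PAR cells (log2 fold change -3.09 ± 0.20, adjusted p = 3.6e-08). TFAP2C, a luminal factor, had 37.1, 31.4 and 29.99 CPM in TR and 188, 213 and 151.4 CPM in PAR cells (log2 fold change -2.49 ± 0.16, adjusted p = 3.9e-08). MSX2 had 13, 13 and 11.1 CPM in TR and 70.6, 78.9 and 61.9 CPM in PAR cells (log2 fold change -2.51 ± 0.16, adjusted p = 4.2e-08). All TR libraries were lower than all PAR libraries in each of these genes. GRHL3, a factor of epidermal barrier formation, went the other way at 13.3, 16.2 and 17.5 CPM in TR and 1.76, 1.27 and 2.47 CPM in PAR cells (log2 fold change 3.03 ± 0.25, adjusted p = 4.4e-07). RUNX2 overlapped and was not called (adjusted p = 0.31).

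Of 52 tested SOX, FOX, KLF, PAX and TBX factors (a further 52 in the files were not tested), 12 were higher and 14 lower, with a median of -0.06 (-0.21 to -0.09 after GC correction or without TR library 3 or PAR library 1 and -0.02 to 0.10 without TR library 1 or 2 or PAR library 2 or 3) that was also above 0 with no filter on low counts. SOX5 had 41.7, 28.3 and 37.8 CPM in TR and 0.923, 0.318 and 0.4 CPM in PAR cells (log2 fold change 6.03 ± 0.32, adjusted p = 5.7e-09). SOX9, a factor of breast progenitor cells, had 80.2, 67.6 and 72.9 CPM in TR and 30.6, 29.1 and 35.2 CPM in PAR cells (log2 fold change 1.21 ± 0.13, adjusted p = 7e-06). KLF4 had 0.825, 0.748 and 1.37 CPM in TR and 15.9, 11.6 and 19.4 CPM in PAR cells (log2 fold change -3.98 ± 0.42, adjusted p = 5.6e-06). The groups were apart in all 3, SOX5 and SOX9 being higher and KLF4 lower in TR cells. TBX22 had 254 counts in TR and 0 in PAR cells, at least 51.3-fold higher, and KLF17 had 239 counts in TR and 1 in PAR cells, a ratio of 145 (95% counting interval 25.8 to 5748). FOXP1 changed by -2.80 ± 0.33.

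**Figure D4:**
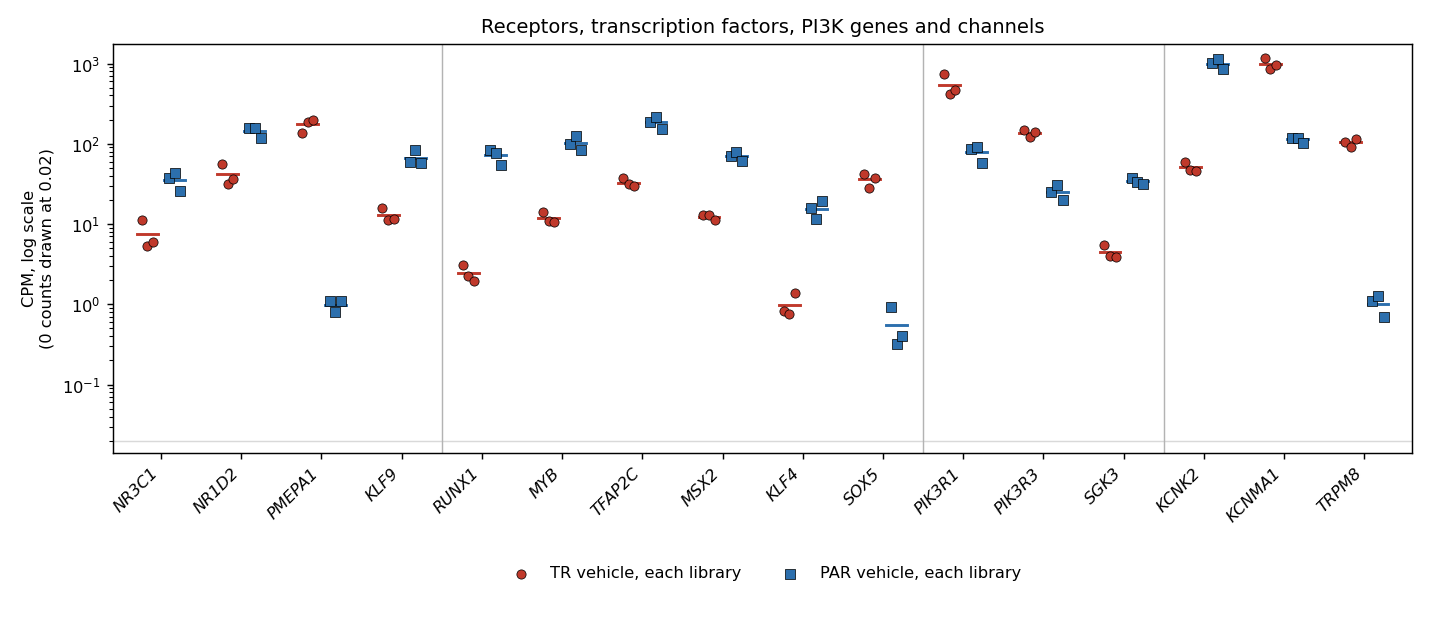
CPM (log scale) of 16 genes in each library, TR vehicle (red circles) left of PAR vehicle (blue squares), with group means as lines and libraries with 0 counts drawn at 0.02. Grey lines separate nuclear receptors and hormone-induced genes, transcription factors, PI3K genes and ion channels. PMEPA1 and SOX5 are higher and NR3C1, RUNX1 and MYB lower in all TR libraries.

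HOX genes pattern the body axis and lie in clusters. Of 39 in the files 16 were tested, 7 were higher and 1 lower, with a median of 0.75 (1.15 without PAR library 3). The higher genes included HOXB3, HOXC4, HOXC6, HOXC8 and HOXC13. HOXC4 had 34, 31.4 and 33.6 CPM in TR and 8.73, 6.04 and 9.46 CPM in PAR cells (log2 fold change 2.01 ± 0.21, adjusted p = 5.6e-06). HOXC8 had 5.88, 4.12 and 6.43 CPM in TR and 1.09, 1.27 and 0.509 CPM in PAR cells (log2 fold change 2.61 ± 0.35, adjusted p = 5.5e-05). Both were separated between groups. HOXC10, in the same cluster, overlapped and was not called (adjusted p = 0.18). The lower gene, HOXC11, had 9.29, 19.4 and 16.9 CPM in TR and 21.4, 24.1 and 26.9 CPM in PAR cells (log2 fold change -0.67 ± 0.24, adjusted p = 0.042). HOXC11 was no longer called without TR library 1 or 3 or PAR library 1, 2 or 3 (at log2 fold changes of -0.74 to -0.40).

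Clustered protocadherins, adhesion proteins of neurons made from 3 neighbouring arrays, were higher in 18 of 45 tested members (53 in the files) and lower in 1 (PCDHGA2), with a median of 0.78. PCDHGA2 missed the threshold without TR library 3 or PAR library 2 (at log2 fold changes of -1.86 to -1.31). PCDHA4 had 22.3, 16 and 18.3 CPM in TR and 3.27, 4.29 and 2.84 CPM in PAR cells (log2 fold change 2.47 ± 0.24, adjusted p = 2.4e-06). PCDHA11 rose by 2.58 ± 0.31 and PCDHGB5 by 1.09 ± 0.15. Members of the PCDHA array, and those of the PCDHG array, share their last exons and overlap each other. Their reads cannot be assigned with certainty to single members. PCDHB15 overlapped between groups and was not called (adjusted p = 0.60).

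Histone genes had few calls. Of 35 tested replication-dependent histone genes, 4 were higher (H3C10, H2AC13, H4C8 and H3C6) and 2 lower (H1-3 and H2BC26), under the shares of all genes. Many of these transcripts lack long tails and have near-identical copies, so their counts are uncertain. GC correction turned the excess round, to 4 higher and 7 lower, and 4 were lower without PAR library 1. The call of H1-3 was lost without TR library 3 or PAR library 2 (at log2 fold changes of -1.93 to -1.77). Of 41 tested polycomb, DNA methylation and TET genes, 9 were higher and 4 (UHRF2, PCGF1, MBD4 and RNF2) lower, with a median of 0.03 (-0.09 after GC correction and 0.05 to 0.17 without TR library 1, 2 or 3 or PAR library 1, 2 or 3) and 11 higher and 13 lower after GC correction. Their share of calls was 31.7%, near that of all genes. DNMT1, the maintenance methyltransferase, had 49.9, 76.9 and 74.5 CPM in TR and 27.6, 17.3 and 28.9 CPM in PAR cells (log2 fold change 1.44 ± 0.21, adjusted p = 9.8e-05). Its partner UHRF1 had 20.2, 31.5 and 27.3 CPM in TR and 2.69, 2.38 and 7.02 CPM in PAR cells (log2 fold change 2.63 ± 0.40, adjusted p = 0.00015), whereas the related UHRF2, on chromosome 9, had 30.5, 15.6 and 15.6 CPM in TR and 53.6, 53.8 and 37.2 CPM in PAR cells (log2 fold change -1.23 ± 0.27, adjusted p = 0.0028). None of the 3 overlapped. EZH2 and TET2 were not called (adjusted p = 0.15 and 0.067). RNF2 lost its call without TR library 2 or 3 or PAR library 2 (at log2 fold changes of -0.61 to -0.57). Of 20 tested imprinted genes, 4 were higher (IGF2R, H19, IGF2 and KCNK9) and 3 lower (GRB10, PEG10 and ZNF597), 35.0% in all and so near the background, with a median of 0.34 (0.13 after GC correction). ZNF597 was no longer called without TR library 2 or 3 or PAR library 1 or 2 (at log2 fold changes of -0.95 to -0.50). GRB10, an adaptor that restrains insulin receptor signalling, had 16.4, 21.5 and 21.8 CPM in TR and 103, 108 and 105 CPM in PAR cells (log2 fold change -2.40 ± 0.18, adjusted p = 1.8e-07).

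Genes of homologous recombination and the Fanconi pathway were higher in 10 of 35 tested members and lower in 5 (FANCF, PALB2, RAD51B, ATM and NBN), with a median of 0.34 (0.17 without TR library 1). RBBP8, which starts end resection as CtIP, had 894, 659 and 722 CPM in TR and 218, 223 and 194 CPM in PAR cells (log2 fold change 1.84 ± 0.16, adjusted p = 9.8e-07). XRCC2, a recombination factor, had 40.5, 29.1 and 27.4 CPM in TR and 10.2, 10.3 and 5.79 CPM in PAR cells (log2 fold change 1.90 ± 0.26, adjusted p = 5.4e-05). Both were without overlap. EXO1, a resection nuclease, rose by 1.62 ± 0.19 and the helicase BRIP1 by 1.84 ± 0.27. FANCF had 13.9, 10.7 and 13.9 CPM in TR and 31, 51 and 28.7 CPM in PAR cells (log2 fold change -1.52 ± 0.35, adjusted p = 0.0038). Calls were lost for RAD51B without TR library 2 or 3 or PAR library 1 (at log2 fold changes of -0.72 to -0.67), ATM without TR library 2 or 3 or PAR library 1 or 2 (at log2 fold changes of -0.79 to -0.51) and NBN without TR library 2 or 3 or PAR library 1 or 2 (at log2 fold changes of -0.61 to -0.48), each left out alone.

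Ion channel genes were called more often than all genes, in 51.2% of tested potassium channel genes and 64.2% of the other channels listed. Of 43 tested potassium channel genes (99 in the files), 16 were higher and 6 lower, with a median of 0.86. KCNMA1, the large-conductance calcium-activated channel, had 1163, 862 and 962 CPM in TR and 119, 119 and 102 CPM in PAR cells (log2 fold change 3.13 ± 0.16, adjusted p = 5.2e-09). KCNK2, a mechanosensitive background channel, had 59.7, 47.2 and 46.5 CPM in TR and 1002, 1137 and 845 CPM in PAR cells (log2 fold change -4.28 ± 0.20, adjusted p = 1.8e-09). The groups were far apart in both genes, KCNMA1 being high in TR libraries and KCNK2 high in PAR libraries. Of 53 tested sodium, calcium, chloride and TRP channel genes, 25 were higher and 9 lower, with a median of 0.84. TRPM8, the cold and menthol receptor and an androgen-induced gene in prostate, had 107, 90.8 and 114 CPM in TR and 1.09, 1.27 and 0.691 CPM in PAR cells (log2 fold change 6.79 ± 0.21, adjusted p = 4.5e-11). TRPV3, a warmth receptor, had 68.6, 67.5 and 78.5 CPM in TR and 8.73, 8.74 and 8.55 CPM in PAR cells (log2 fold change 3.04 ± 0.14, adjusted p = 1.5e-09). Each PAR library was well under each TR library. SCNN1A, a subunit of the epithelial sodium channel, rose by 1.55 ± 0.32. CLCA2 had 457 counts in TR and 0 in PAR cells, at least 92.4-fold higher. CLIC6 had 0.98, 1.27 and 1.03 CPM in TR and 19.2, 16 and 13.6 CPM in PAR cells (log2 fold change -3.89 ± 0.35, adjusted p = 1.2e-06), and CACNA1D, a calcium channel, changed by -1.89 ± 0.26.

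Of 38 tested ABC transporters, aquaporins and carbonic anhydrases (71 in the files), 10 were higher (6 without PAR library 2) and 3 (AQP3, ABCB4 and CA8) lower, with a median of 0.44 (0.23 to 0.27 after GC correction or without TR library 2 and 0.69 without PAR library 3). AQP3, a water and glycerol channel, had 0.464, 1.76 and 1.4 CPM in TR and 22.2, 30.8 and 29 CPM in PAR cells (log2 fold change -4.47 ± 0.43, adjusted p = 2e-06), without overlap. The multidrug pumps ABCB1 and ABCG2 were close to undetected, with 2 and 5 counts over the TR libraries and 0 and 5 over the PAR libraries. No longer called were ABCB4 without TR library 1, 2 or 3 or PAR library 2 (at log2 fold changes of -2.47 to -0.76) and CA8 without TR library 2 or 3 or PAR library 1 (at log2 fold changes of -0.65 to -0.63), each left out alone. CA12, an oestrogen-linked carbonic anhydrase, was not called (adjusted p = 0.38). The share of this list that was called, 34.2%, was near that of all genes. Tetraspanins and gap junction proteins were higher in 12 of 29 tested members and lower in 1 (TM4SF1, -2.06 ± 0.24), with a median of 0.70. GJB2, a connexin, had 2.42, 3.48 and 2.67 CPM in TR and 0, 0.477 and 0.0728 CPM in PAR cells (log2 fold change 4.50 ± 0.62, adjusted p = 6.3e-05). TSPAN6 rose by 1.32 ± 0.15, and GJA1 was not called (adjusted p = 0.093).

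Serpins, cystatins and kallikreins were higher in 3 of 16 tested members (SERPINB5, SERPING1 and CSTA) and lower in 4 (SERPINA1, KLK10, SERPINB1 and SERPINB6), with a median of -0.25 (-0.49 without TR library 2 and 0.03 without TR library 1). SERPINB5, the maspin gene of myoepithelial cells, had 21.6, 14.6 and 15.3 CPM in TR and 1 count in all over the PAR libraries, a ratio of 760.5 (95% counting interval 136 to 30060.0). SERPINA1, alpha-1-antitrypsin, had 10.2, 28 and 21.6 CPM in TR and 102, 108 and 150.2 CPM in PAR cells (log2 fold change -2.59 ± 0.34, adjusted p = 3.8e-05). Neuroendocrine and synaptic adhesion genes were higher in 15 of 28 tested members (61 in the files) and lower in 4 (SYT7, SYT12, SYT13 and CNTNAP2), with a median of 1.16. SYT17 had 19.2, 19.8 and 20.3 CPM in TR and 2.85, 3.02 and 3.2 CPM in PAR cells (log2 fold change 2.70 ± 0.17, adjusted p = 3.2e-08). L1CAM, a neural adhesion molecule, had 43.8, 158 and 173 CPM in TR and 1.34, 0.953 and 5.02 CPM in PAR cells (log2 fold change 5.49 ± 0.70, adjusted p = 3.2e-05). Neither overlapped. LRRTM3 had 317 counts and CNTN1 275 counts in TR and each had 0 in PAR cells, at least 64.1-fold and at least 55.6-fold higher against 3 counts over the PAR group. Calls lapsed for SYT7 without TR library 1 or PAR library 3 (at log2 fold changes of -0.86 to -0.67) and SYT12 without TR library 1 or 2 or PAR library 3 (at log2 fold changes of -2.69 to -1.50), each left out alone. CNTNAP2 had 41.2, 33.1 and 35.3 CPM in TR and 108, 103 and 86.9 CPM in PAR cells (log2 fold change -1.44 ± 0.15, adjusted p = 5.3e-06).

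Autophagy genes were lower in 11 of 36 tested members (7 without TR library 2 or 3) and higher in 6, with a median of -0.11 (-0.05 to 0.03 without TR library 2 or PAR library 3). WIPI1, a phosphoinositide-binding autophagy protein, had 30.4, 28.7 and 31.4 CPM in TR and 149, 151.4 and 123.4 CPM in PAR cells (log2 fold change -2.23 ± 0.14, adjusted p = 3.9e-08). The receptors split, with TAX1BP1 at 196, 130.1 and 133 CPM in TR and 419.5, 491 and 327 CPM in PAR cells (log2 fold change -1.43 ± 0.21, adjusted p = 0.00012) and OPTN at 118, 125 and 122.8 CPM in TR and 43.8, 30.2 and 48.2 CPM in PAR cells (log2 fold change 1.57 ± 0.15, adjusted p = 2.2e-06). None of these 3 genes overlapped. SQSTM1 was not called (adjusted p = 0.74).

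Among the 10 largest falls of protein-coding genes were a ligand, a receptor and a signalling scaffold. AREG, amphiregulin, a ligand of the epidermal growth factor receptor induced by oestrogen, had 0.516, 0.15 and 0.0342 CPM in TR and 21.3, 29.1 and 20.2 CPM in PAR cells (log2 fold change -6.74 ± 0.71, adjusted p = 5.6e-06). GFRA1, the co-receptor for GDNF, had 2.27, 1.57 and 1.78 CPM in TR and 223, 207 and 156 CPM in PAR cells (log2 fold change -6.71 ± 0.38, adjusted p = 9.9e-09). PLCL1, a phospholipase C-like protein without enzyme activity, had 0.31, 0.224 and 0.137 CPM in TR and 26.9, 22.7 and 19.3 CPM in PAR cells (log2 fold change -6.69 ± 0.66, adjusted p = 2.7e-06). No TR library reached 3 CPM of any of the 3, and no PAR library was under 19 CPM.

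Calls were spread unevenly over chromosomes. On chromosome 9, 205 of 621 tested genes were lower and 61 higher, with a median of -0.46. Chromosome 3 (240 lower, 140 higher of 926) and chromosome 7 (171 lower, 105 higher of 783) leaned the same way. Chromosomes 6, 10, 12 and X leaned up, with 243, 208, 267 and 164 genes higher and 94, 71, 78 and 73 lower, and medians of 0.36, 0.30, 0.35 and 0.29. Of 26 tested mitochondrial genes, 9 were higher and 2 lower, with a median of only 0.075 (0.0 after GC correction). Mitochondrial genes held 22.6%, 18.6% and 15.6% of all counts in the TR libraries. In the PAR libraries they held 25.7%, 24.0% and 14.5%, so the groups overlapped. Chromosome 22 had the highest median, 0.56, with 91 of 395 tested genes higher and 21 lower, and 0.35 after GC correction. DNA copy number was not measured, so changes of the chromosomes and changes of regulation cannot be told apart.

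**Figure D5:**
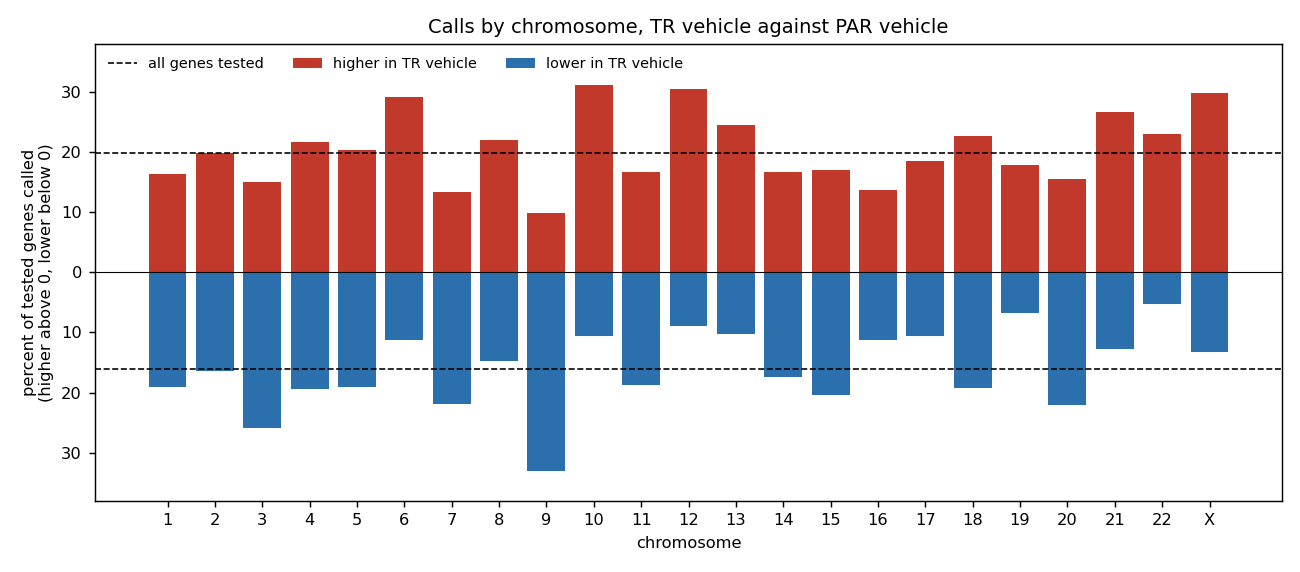
Percent of tested genes on each chromosome called higher (above 0, red) or lower (below 0, blue) in TR vehicle than in PAR vehicle cells, with dashed lines at the percentages of all tested genes. Genes of the mitochondrial genome are not drawn. Chromosome 9 has the longest bar below 0, and chromosomes 6, 10, 12 and X have the longest bars above it.

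Neighbouring genes shared a direction in places. Among 1585 overlapping runs of 20 consecutive tested genes, 95% had a median log2 fold change between -0.79 and 0.92. The lowest run lay on chromosome 3 at 58332880 to 67011210 (GRCh38), from PXK to KBTBD8, with 13 genes lower, 1 higher and a median of -1.50. Its start is a row of neighbours, named after their values were seen, most of which fell. PXK, a lipid-binding kinase-like protein, had 3.97, 4.34 and 3.25 CPM in TR and 115, 145 and 93.6 CPM in PAR cells (log2 fold change -4.93 ± 0.28, adjusted p = 1.1e-08). PDHB, the pyruvate dehydrogenase subunit described above, is the next gene. KCTD6, an adaptor of a ubiquitin ligase, had 1.03, 1.46 and 0.821 CPM in TR and 136, 136 and 117 CPM in PAR cells (log2 fold change -6.87 ± 0.34, adjusted p = 3.4e-09). In PXK and KCTD6 no TR library reached 5 CPM and every PAR library was over 90, and the 9 drug-treated TR libraries lay between 0.79 and 4.18 CPM. ABHD6 (-2.15 ± 0.48), RPP14 (-1.70 ± 0.42), ACOX2 and CFAP20DC (-2.01 ± 0.36) on either side were lower too. PSMD6, further along the run, was not called (adjusted p = 0.71), and LRIG1, a brake on receptor kinases, changed by -2.77 ± 0.25.

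Other runs with low medians lay on chromosome 7 at 16916359 to 23177914 (AHR to KLHL7, 12 lower, 1 higher, median -1.22) and on chromosome 9 at 4553386 to 12710285 (SPATA6L to TYRP1, 11 lower, 1 higher, median -1.11). GLDC was the 1 higher gene of the run on chromosome 9. The highest run lay on chromosome 12 at 54230942 to 55757264, from CBX5 to GDF11, with 12 genes higher, 0 lower and a median of 2.34. It held DCD, dermcidin, with 823 counts in TR and 3 in PAR cells, a ratio of 166 (95% counting interval 56.7 to 808), and ended at GDF11. The HOXC genes lie just before it. A run of protocadherins on chromosome 5 at 140785698 to 141153287 had 16 genes higher and a median of 2.06. On chromosome 22 at 43197280 to 45601135, SCUBE1 to FBLN1, 10 genes were higher and 0 lower (median 1.92), among them PNPLA3, a lipase of lipid droplets, at 49.1, 53.3 and 65 CPM in TR and 9.31, 2.86 and 8 CPM in PAR cells (log2 fold change 3.01 ± 0.28, adjusted p = 1.8e-06). On chromosome 10, overlapping or adjoining runs between 80207372 and 89701274 had medians of 1.48 to 1.61. SNCG, gamma-synuclein, in that stretch had 17.8, 124 and 122 CPM in TR and 0, 0.159 and 1.24 CPM in PAR cells (log2 fold change 7.07 ± 1.03, adjusted p = 0.00011).

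Some genes were seen in 1 group only. With 0 counts in all PAR libraries and at least 1 CPM in every TR library there were 60 genes, 47 of them protein coding, against 9 with 0 counts in all TR libraries and at least 1 CPM in every PAR library, 6 of them protein coding. The PAR group held fewer counts in all, so that a low gene was more easily missed there. Among the 60 were MMRN1, multimerin, at 13.3, 9.95 and 10.9 CPM in TR cells (at least 171-fold higher), VAT1L at 8.87, 8.68 and 9.71 CPM (at least 139-fold higher) and IGSF21, a synaptic adhesion protein, at 4.85, 21.6 and 22.7 CPM (at least 269.6-fold higher). CLEC7A, the beta-glucan receptor of myeloid cells, was at 7.47 ± 2.05 CPM in TR cells (SD, n = 3), and DIO2, which activates thyroid hormone, at 3.98 ± 1.78 CPM. The long non-coding RNA FIRRE, on chromosome X, was at 33.8 ± 7.75 CPM in TR cells. On the other side ZNF484, a zinc finger gene of chromosome 9, was at 5.49 ± 2.11 CPM in PAR cells and 0 counts in TR cells.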

How the data were processed

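The authors deposited counts per gene for each library. Per the submitters' processing notes, reads of a stranded kit were aligned to GRCh38 with HISAT2 2.1.0. Per the file headers, featureCounts 2.0.1 counted them by strand on Ensembl 104 annotation, whereas the notes give version 1.4.6-p1. All 15 libraries (5 groups of 3) were fitted with edgeR 4.0.16 in R 4.3.3, using TMM scaling, its filter on low counts and the quasi-likelihood test of TR vehicle against PAR vehicle, with Benjamini-Hochberg adjustment over 16210 genes. The common dispersion was 0.095, on 10 residual degrees of freedom. In these 6 libraries 3 counts amounted to 0.11 to 0.432 CPM, which limits low genes, most of all in PAR library 2.

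Members, motifs and 55 gene lists (1 list and some genes are not reported here) were chosen with earlier results of these data known. Named genes were each list's key members, its 4 called members with the smallest p at an average log2 CPM of at least 1, its 2 strongest against the majority, and the 10 largest rises and falls. Members named to spell out small counts, genes seen in 1 group, chromosome neighbours and a few more (102 in all) were named after their values were seen. Alternatives were DESeq2 1.42.0, its size factors, other filters, the 2 groups alone, a replicate block, a 1.5-fold threshold, GC and length correction, and leaving out each library. The fit was tested on simulated counts with few changed genes and no GC axis. That test does not cover the wide changes and the GC axis of these data. Symbols and gene types came from the files and GENCODE 29, and promoters from RefSeq.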

Additional observations from a re-analysis of the deposited data

How the results depend on the processing

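Counts of called genes were within 1.5 times of 3220 higher and 2598 lower under DESeq2, its size factors, both other filters and the replicate block, while GC and length correction gave 4277 lower genes, the fit of the 2 groups alone 1788 higher and 1620 lower, and the test against a 1.5-fold change 1994 and 1303. Leaving out single libraries gave 2812 to 3401 higher and 1883 to 2869 lower genes. Of 5818 calls, 5766 stood in the same direction under DESeq2 and 3399 with the 2 groups alone, which leaves fewer samples for the spread. Correlations of same-numbered TR and PAR libraries (0.60, -0.48 and 0.81) did not pair them, and a replicate block gave 3116 higher and 2433 lower genes. The rules for naming genes picked 445 tested genes, not all of which appear above, and 395 of these were called. No called gene among them changed sign. Of the 395, 293 kept their calls in every alternative that tested them, the 1.5-fold test and left-out libraries included. When the 2 groups were fitted alone 76 lost their calls, and not all of these losses are marked where the gene is named. The direction of the larger count of calls turned round in 10 of 55 lists and the sign of the median in 11. Genes seen in 1 group numbered 16 in TR and 3 in PAR cells at a minimum of 5 CPM. Among runs of 40 genes, 95% had medians between -0.73 and 0.85. Depth limits genes near 3 counts, and the causes of these changes were not tested.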
